A study of Mus musculus with 17 samples.

Results

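Growth factors and receptors linked to neuronal activity were followed through mouse brain ischemia: the neurotrophins Bdnf and Ntf3, the neurotrophin receptor Ntrk2, and the growth factors Hbegf, Inhba, Inhbb, Fgf2, Hgf and Tgfb1. These 9 genes were taken by name, and a probe set counted as a member if the array's annotation gave it to that gene alone. Of the 9 genes, 8 had a probe set, 1 each, among the 12488 on the array. Ntf3 was not matched and was not analysed here, and the same holds for the neuropeptide precursor Vgf.

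Neurotrophins are secreted proteins that keep neurons alive and shape synapses. Bdnf, the most abundant of them in the adult forebrain, acts through the receptor tyrosine kinase encoded by Ntrk2, and its gene is switched on by calcium entry in active neurons. Hbegf encodes a membrane-anchored ligand of the EGF receptor family that is shed by proteases. Inhba encodes the subunit of activin A and Inhbb that of activin B, and both genes belong to the TGF-beta superfamily. Fgf2, Hgf and Tgfb1 encode ligands made largely by glia, vessels and immune cells in injured brain.

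RNA came from the part of the mouse brain supplied by the middle cerebral artery, grey and white matter together, and was measured on 17 oligonucleotide arrays. There were 5 single treated brains, 1 brain per array, which had 1 h of ischemia and then the drug by vein before 6 h of reperfusion. There were 3 arrays each of treated ischemic pools with the same procedure, drug control pools given the drug without ischemia, ischemic pools with the same times and no drug named, and control pools given saline. The drug was AEOL 10150, a catalytic antioxidant. Each pooled array carried RNA of 6 brains, and non-ischemic tissue was taken 6 h after the injection. The labels give no strain, sex, age or dose, and leave unsaid whether ischemic mice without the drug were injected.

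Values are array intensities, each array rescaled to a mean of 2500 over its values inside the 2nd to 98th percentiles. A floor of 109.5 (6.77 on the log2 scale), set at the 25th percentile of the pools' scaled values, marks what was read as not measured, and arrays at the floor carry no order. The 5 single brains and treated ischemic pools 2 and 3 had been deposited on other scales than the remaining 10 arrays. The titles and descriptions of 2 arrays differ: the description gives saline for drug control pool 1 and leaves the drug out for treated ischemic pool 1. The main results on the members and on the activity genes are also given without these 2 arrays. Actin 3'/5' ratios, a measure of RNA integrity, were between 1.15 and 2.14 over the 17 arrays. All 5 neuronal and all 5 astrocytic marker genes with a probe set were above the floor on every array. Aif1 of the microglia and Cnp of the oligodendrocytes were at the floor on all pools.

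Members differed in how well they were measured. Bdnf, Hbegf and Inhba were above the floor on 12 of 12 pooled arrays and 5 of 5 single brains. Hgf was above the floor on 7 pooled arrays, Ntrk2 on 6, Fgf2 on 4, Inhbb on 1 and Tgfb1 on 0. Only 6 members, all but Inhbb and Tgfb1, were above the floor on at least 3 pooled arrays and so could be tested there.

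Promoter sequences are shown for Bdnf, because it was measured on every array and because its gene has several start sites that join 1 shared coding exon. They are RefSeq windows of 300 bases around a start, most of each upstream of it, in build GRCm38.p6. Of the 7 Bdnf windows, 2 held one of the elements searched, as did 27.4% of all windows. Motifs were searched on both strands: the short cAMP response element TGACG, bound by CREB, and the AP-1 element TGANTCA, bound by Fos and Jun proteins. The first window below is chr2:109676782-109677081, plus strand, with an AP-1 element at -152 from the start in capitals. The second is chr2:109692186-109692485, plus strand, with the short cAMP response element, read from the other strand as CGTCA, at -35 in capitals.
Bdnf window 2: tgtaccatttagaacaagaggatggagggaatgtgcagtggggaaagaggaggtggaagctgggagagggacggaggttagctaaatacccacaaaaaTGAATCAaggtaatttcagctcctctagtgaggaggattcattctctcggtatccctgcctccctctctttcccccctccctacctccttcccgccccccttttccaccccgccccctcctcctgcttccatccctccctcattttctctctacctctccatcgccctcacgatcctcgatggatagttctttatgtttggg
Bdnf window 3: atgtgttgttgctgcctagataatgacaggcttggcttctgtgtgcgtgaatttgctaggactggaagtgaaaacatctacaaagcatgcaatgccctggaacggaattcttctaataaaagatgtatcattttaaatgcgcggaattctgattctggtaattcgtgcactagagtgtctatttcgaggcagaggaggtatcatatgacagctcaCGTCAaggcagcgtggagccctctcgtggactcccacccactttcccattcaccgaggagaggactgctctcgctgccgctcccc
Among all 32851 RefSeq windows, 20.8% held the short cAMP response element, 7.81% the AP-1 element and 1.79% the full element TGACGTCA. The Fgf2 window held the short element in 2 places. The windows of Ntrk2, Inhba, Inhbb, Hgf and Tgfb1 held neither the short element nor AP-1, which says only that these letters were not in those windows. No window of Hbegf was searched. The array has 1 Bdnf probe set, so it does not tell which start was in use.

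Bdnf was above the floor on every array, and its group means were higher in the ischemic groups, though no test on the pools was passed without a block. Its scaled intensity was 20431, 14661, 18039, 12829 and 18022 in single treated brains 11, 12, 13, 14 and 16. It was 15061, 23061 and 15491 in treated ischemic pools 1 to 3, against 7402, 12747 and 9253 in drug control pools. It was 18303, 24953 and 16735 in ischemic pools, against 9426, 15459 and 9665 in control pools. Pool 2 was the brightest of its group in all 4 pooled groups. The lowest treated ischemic pool lay above the highest drug control pool, and the lowest ischemic pool above the highest control pool. Treated ischemic pool 1 lay just under control pool 2, so the 6 ischemic and 6 non-ischemic pools together did overlap.

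Of the 3 members measured on every array, Hbegf had the widest spread between pools of 1 group. Its scaled intensity was 2391, 2602, 2124, 3207 and 1844 in the 5 single treated brains. It was 1584, 3767 and 2630 in treated ischemic pools, against 658, 2158 and 1548 in drug control pools. It was 1398, 4889 and 3006 in ischemic pools, against 683, 2002 and 1397 in control pools. In each pooled group pool 1 was lowest, pool 3 came next and pool 2 was highest. The ischemic and control pools therefore overlapped, although each ischemic pool exceeded the control pool of the same number.

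Inhba had the narrowest spread of these 3. Its scaled intensity was 965, 944, 839, 865 and 730 in the single treated brains. It was 1114, 911 and 1121 in treated ischemic pools, against 731, 630 and 707 in drug control pools. It was 925, 1087 and 1195 in ischemic pools, against 487, 649 and 827 in control pools. All 6 ischemic pools lay above all 6 non-ischemic pools.

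**Figure D1:**
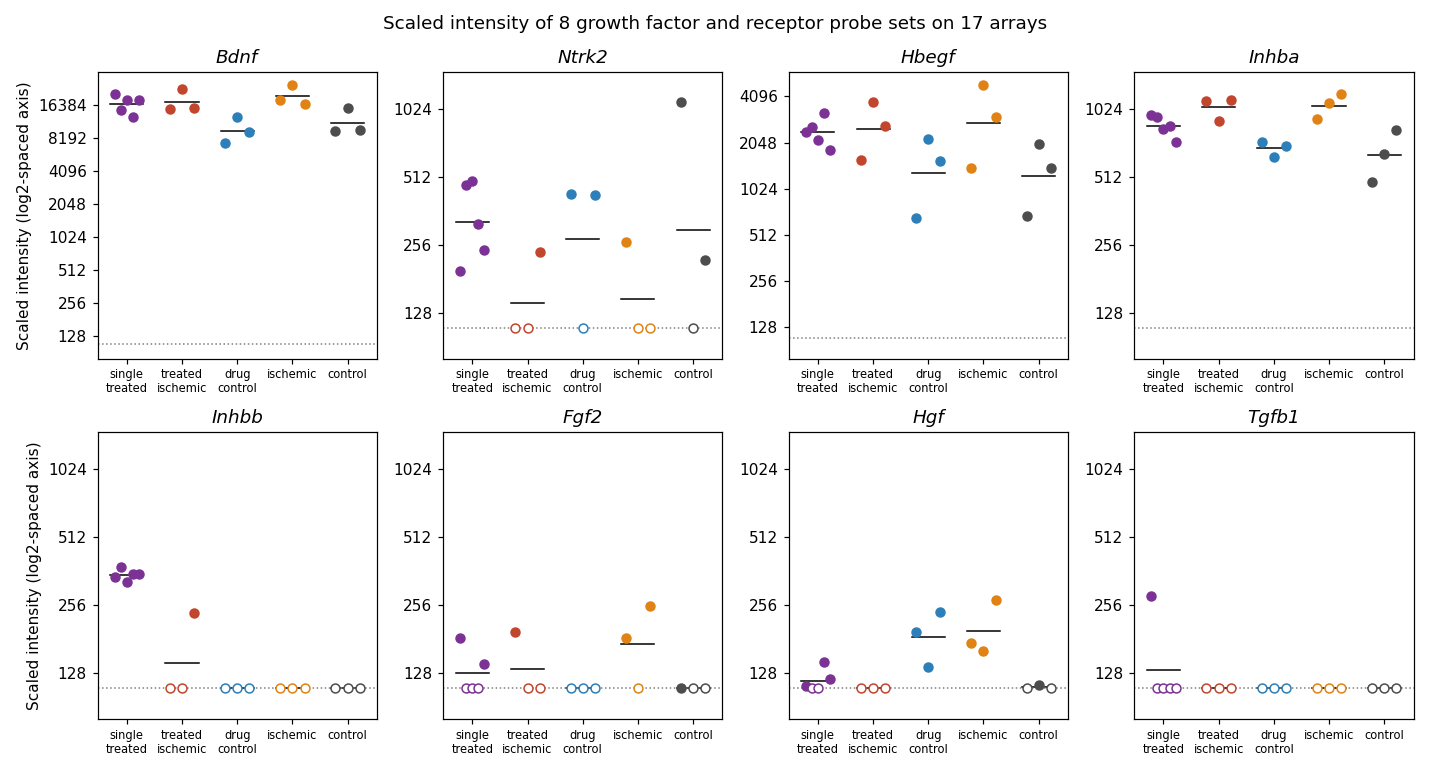
Scaled intensity of the 8 growth factor and receptor probe sets on the 17 arrays (vertical axis, log2-spaced; 1 panel per gene; horizontal axis, the 5 groups). Filled points are arrays above the floor of 109.5 (dotted line), open points arrays at the floor, and black bars the group means of the log2 values. Bdnf, Hbegf and Inhba sit above the floor on every array, and Inhbb is measured on all 5 single treated brains and on 1 of 12 pools.

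Hgf, the ligand of the receptor Met, stayed near the floor. Its scaled intensity was 112, 94, 70, 143 and 120 in single treated brains. It was 103, 66 and 73 in treated ischemic pools, all at the floor, against 194, 136 and 240 in drug control pools. It was 174, 161 and 271 in ischemic pools, against 10, 114 and 96 in control pools. Drug control and ischemic pools were thus the groups with all 3 arrays above the floor.

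Fgf2, a ligand of the FGF receptors, was 195, -37 and -20 in treated ischemic pools, against -62, -98 and -69 in drug control pools. It was 183, -104 and 254 in ischemic pools, against 110, 42 and 62 in control pools. Values below 0 can occur where a background or mismatch signal has been subtracted. Above the floor were 2 ischemic pools, 1 treated ischemic pool, 1 control pool, no drug control pool and 2 of the 5 single brains. Tgfb1, which encodes a ligand that limits inflammation, was below 0 on 11 of 12 pools and at the floor on all 12. It had 281 in single treated brain 11 and -87, 70, 102 and 67 in the other 4.

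Ntrk2, the Bdnf receptor, was the only receptor among the members. Its scaled intensity was 197, 470, 491, 319 and 243 in single treated brains. It was 98, -330 and 239 in treated ischemic pools, against 431, -270 and 426 in drug control pools. It was 264, -303 and 109 in ischemic pools, against 1106, 61 and 220 in control pools. All 4 pools numbered 2 were at the floor. By group mean the single treated brains came first, ahead of control, drug control, ischemic and treated ischemic pools, and no neighbours in this order differed beyond their spread.

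By group mean of log2 intensity, Bdnf ran from ischemic (14.27 ± 0.30, SD, n = 3) through treated ischemic (14.10 ± 0.34, n = 3), single treated (14.02 ± 0.27, n = 5) and control (13.45 ± 0.40, n = 3) to drug control (13.22 ± 0.39, n = 3). The step of 0.56 between single treated brains and control pools was larger than either SD, though single brains 12 and 14 lay below control pool 2. Neighbours in the Bdnf order within the ischemic and within the non-ischemic groups did not differ beyond their spread. For Inhba the order was ischemic (10.05 ± 0.19), treated ischemic (10.03 ± 0.17), single treated (9.76 ± 0.16), drug control (9.43 ± 0.11) and control (9.32 ± 0.38). The Inhba steps on either side of the single brains, 0.27 and 0.33, were larger than either SD, but single arrays overlapped on both sides. Treated ischemic pool 2 (911) lay below single brains 11 (965) and 12 (944), and single brain 16 (730) below drug control pool 1 (731). Single brains and treated ischemic pools had the same procedure and differ in brains per array. For Hbegf the order was ischemic (11.42 ± 0.91), treated ischemic (11.29 ± 0.63), single treated (11.22 ± 0.30), drug control (10.34 ± 0.88) and control (10.28 ± 0.79). No Hbegf step was larger than the larger SD of its neighbours.

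The first comparison, ischemic against control pools, asks what ischemia did without the drug. Hbegf was 2.21-fold, Bdnf 1.76-fold and Inhba 1.66-fold higher by limma. For Hgf and Fgf2 2 of the 3 control pools, and for Ntrk2 2 of the 3 ischemic pools, were at the floor, so no fold is given for these. None of the 6 tested members passed the test across 10259 probe sets, of which 22, or 0.214%, were called at an adjusted p under 0.05. Inhba had a log2 difference of 0.73 (SE 0.22, limma adjusted p = 0.67), Hgf, on floored values, 0.83 (SE 0.25, 0.699) and Bdnf 0.81 (SE 0.30, 1). Hbegf had 1.14 (SE 0.60, limma adjusted p = 1). At an unadjusted p under 0.05 there were 3 members (Inhba, Hgf and Bdnf), against 4.12% of all probe sets. The same 3 had no overlap between groups with ischemia higher, against 4.07% of all. In bulk tissue a change in the number of cells of a type and a change in RNA per cell cannot be told apart.

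The replicate number mattered for Hbegf. In the control, drug control and ischemic groups, same-numbered arrays deviated from their group means together, with correlations over probe sets between 0.33 and 0.57. Hbegf deviated from its group means by -0.94 in pools 1, 0.75 in pools 2 and 0.19 in pools 3 of these groups. Number by number, ischemic over control was 2.05-, 2.44- and 2.15-fold for Hbegf. With the number as a block, the limma log2 difference of 1.14 for Hbegf had an SE of 0.15 and an adjusted p of 0.0262. Hbegf thus passed in that fit, in which 35 probe sets, or 0.341%, were called. The fit also includes the treated ischemic pools, whose numbers were not read as pairs, and its SE rests partly on them. Bdnf (0.0784) and Inhba (0.377) did not pass with the block by limma adjusted p. Actin 3'/5' ratios were 1.65 to 1.97 in pools 1 and 1.33 to 2.14 in pools 2 of these groups, which overlap, and 1.15 to 1.19 in pools 3, which lay apart. The part of RNA integrity in the Hbegf levels was not tested.

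**Figure D2:**
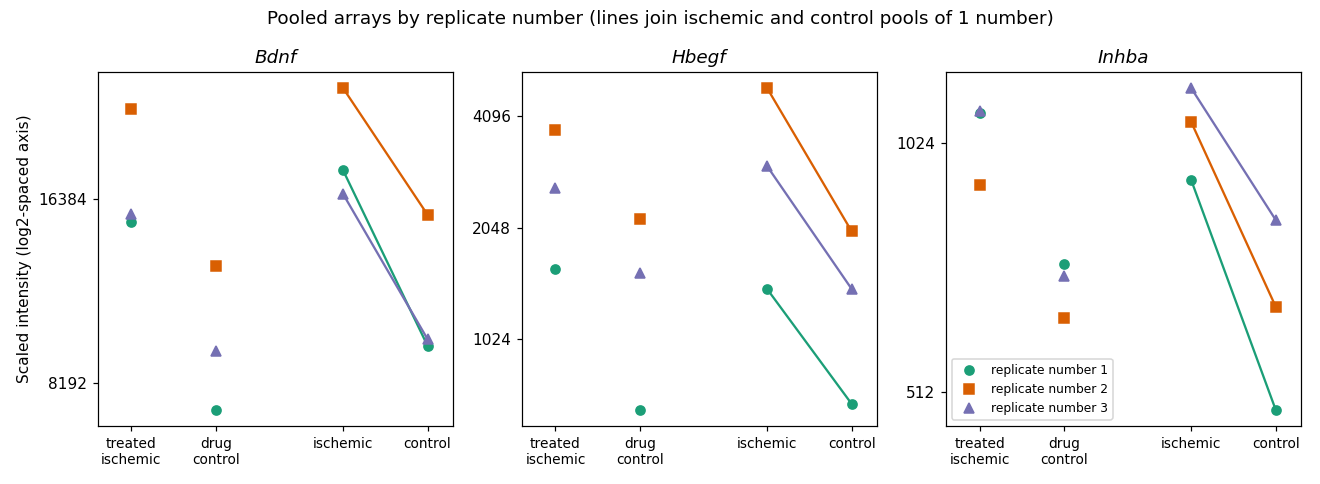
Scaled intensity of Bdnf, Hbegf and Inhba (vertical axis, log2-spaced) on the 12 pooled arrays, by replicate number (1 to 3, marked by colour and shape), with lines joining ischemic and control pools of the same number. All 9 lines run down to the control pool, the treated pools' numbers are not read as pairs, and for Hbegf the 3 numbers keep their order in every group.

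The second comparison, treated ischemic against drug control pools, asks what ischemia did in the presence of the drug. Hbegf was 1.93-fold higher, Bdnf 1.83-fold and Inhba 1.52-fold, and Hgf was at least 1.69-fold lower because all 3 treated pools were at the floor. None of the 6 tested members passed, while 9 of 10259 probe sets, or 0.0877%, were called. The limma log2 differences were 0.87 for Bdnf (SE 0.30), 0.60 for Inhba (SE 0.22), 0.94 for Hbegf (SE 0.60) and -0.76 for Hgf (SE 0.25), each with an adjusted p of 1. Bdnf, Inhba and Hgf had an unadjusted p under 0.05, against 3.44% of all probe sets. Groups did not overlap for Bdnf and Inhba, higher (3.75% of all), and for Hgf, lower (3.64% of all). Without the 2 arrays of unlike labels the log2 differences were 0.80 for Bdnf, 0.60 for Inhba, 0.78 for Hbegf and -0.72 for Hgf. Treated ischemic pools 2 and 3 had been deposited on other scales than the drug control pools. With the deposited scale as a covariate, treated ischemic pool 1 alone stood for its group. The differences were then 0.28 for Hbegf, 0.66 for Bdnf and 0.70 for Inhba.

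Averaged over both drug arms, 6 ischemic pools stood against 6 non-ischemic ones. Inhba was 1.59-fold higher (log2 difference 0.67, SE 0.16, limma adjusted p = 0.194), Bdnf 1.79-fold (0.84, SE 0.21, 0.245) and Hbegf 2.06-fold (1.04, SE 0.43, 0.918). On floored values, Fgf2 had 0.46 (SE 0.22), Hgf 0.04 (SE 0.18) and Ntrk2 -0.98 (SE 0.59). They were above the floor on 4, 7 and 6 pools. Fgf2 passed the filter on low values mainly through the ischemic groups and Ntrk2 mainly through the non-ischemic ones. The values of these 3 genes are therefore a description. No tested member passed without a block, against 46 called probe sets, or 0.448%. With the replicate block Hbegf (limma adjusted p = 0.00498) and Bdnf (0.00759) passed, where 65 probe sets, or 0.634%, were called. That fit includes the treated pools, whose numbers were not read as pairs. An unadjusted p under 0.05 was found for Inhba, Bdnf and Hbegf, against 4.92% of all probe sets. Inhba was the 1 member whose 6 ischemic pools all exceeded the 6 others, a pattern that 0.829% of probe sets had. Without the 2 arrays the log2 differences were 0.67 for Inhba, 0.81 for Bdnf and 0.96 for Hbegf. With the deposited scale as a covariate they were 0.71 for Inhba, 0.73 for Bdnf and 0.71 for Hbegf. Of the neutrophil markers, 5 of 6 listed were tested and 1, S100a8, rose; Ngp was at the floor on every array, and Mmp9 was at the floor on all ischemic pools. Their summed intensity was 6806 to 11082 in treated ischemic pools, 5830 to 7722 in drug control pools, 7244 to 10520 in ischemic pools and 6730 to 7366 in control pools, so the groups overlapped. No marker of neurons, astrocytes, microglia, oligodendrocytes or endothelium passed the test in this comparison, with list medians between -0.20 and 0.22. Their part in the member levels was not tested.

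**Figure D3:**
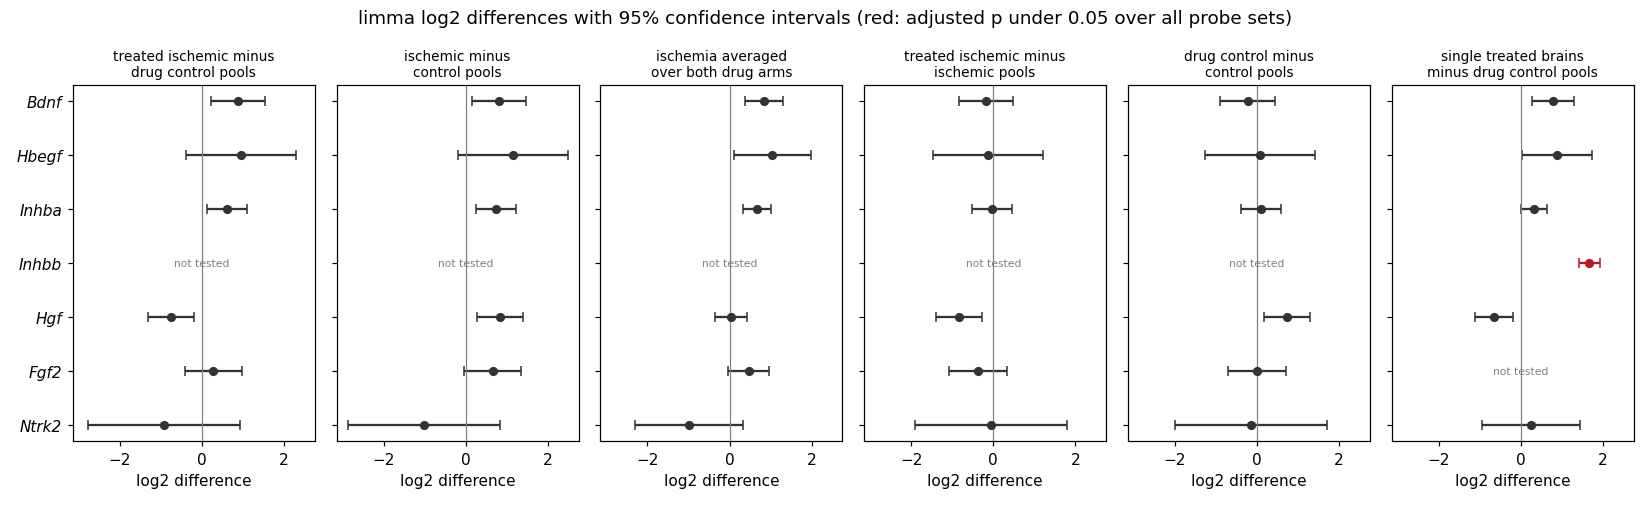
Log2 differences from limma (horizontal axis) with 95% confidence intervals for 7 members (rows) in 6 comparisons (panels); red marks an adjusted p under 0.05 over all probe sets. Bdnf, Hbegf and Inhba lie to the right of 0 in the 3 ischemia panels, and all 3 have intervals that include 0 in both drug panels. The red Inhbb point entered the fit through the single treated brains alone and is not read as a test.

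The drug comparisons share their arrays with the ischemia comparisons, so their values are given side by side only. In treated ischemic against ischemic pools the log2 difference was -0.17 for Bdnf (95% confidence interval -0.83 to 0.49), -0.03 for Inhba (-0.51 to 0.46) and -0.13 for Hbegf (-1.47 to 1.21). These intervals show how large a drug effect of either sign 3 arrays a group leave possible. No member passed limma's test, and 1 probe set of 10259, or 0.00975%, did. Hgf was the 1 member with an unadjusted p under 0.05 (1.47% of all), at least 1.79-fold higher in ischemic pools, with no overlap (2.11% of all lower). In drug control against control pools the log2 difference was -0.23 for Bdnf (-0.89 to 0.43), 0.11 for Inhba (-0.38 to 0.59) and 0.07 for Hbegf (-1.27 to 1.40). Again no member and 1 probe set, or 0.00975%, passed, and Hgf, with 2 of the 3 control pools at the floor, was the 1 member under an unadjusted p of 0.05 (2.57% of all) and without overlap (2.73% of all higher). Without the 2 arrays of unlike labels, treated ischemic minus ischemic was -0.06 for Bdnf, -0.07 for Inhba, 0.20 for Hbegf and -0.84 for Hgf. Drug control minus control was then -0.05 for Bdnf, 0.06 for Inhba, 0.56 for Hbegf and 0.70 for Hgf. Both of these differences leave out pool 1 on the drug side alone, and pool 1 was the lowest for Hbegf in each pooled group. Number by number, drug control over control was 0.96-, 1.08- and 1.11-fold for Hbegf.

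The ischemia response was also set against itself, with the drug minus without. Hgf had a log2 difference of -1.58 between the responses (SE 0.36, limma adjusted p = 0.999738), since it was higher in ischemic than control pools and lower in treated ischemic than drug control pools. It was the 1 member with an unadjusted p under 0.05, which 213 probe sets, or 2.08%, had, and 0 of 10259 probe sets (0%) passed the adjusted threshold. Bdnf differed by 0.06 (SE 0.42), Inhba by -0.13 (SE 0.31) and Hbegf by -0.20 (SE 0.85) between the responses. Without the 2 arrays of unlike labels Hgf differed by -1.55. A difference between the 2 ischemia responses was therefore not shown for any member. Hgf passed the filter on low values mainly through the drug control and ischemic pools, so its p values here are a description.

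The single treated brains were fitted apart, against 3 drug control pools and against 3 ischemic pools. Inhbb, the activin B subunit, passed the filter on low values only through the single brains, so its values are a description and no test of it is read. Its scaled intensity was 340, 379, 325, 353 and 351 in single treated brains, against -167, -93 and -541 in drug control pools and -62, -116 and -421 in ischemic pools. It was -206, -140 and 237 in treated ischemic pools and 83, 31 and -383 in control pools. All single brains were above the floor, as was the treated ischemic pool 3, and no other array was. The mean of the single brains was at least 3.19-fold higher than the floor at which all drug control and all ischemic pools lay. The single brains differ from both pooled groups in the number of brains per array and in the deposited scale as well, and these cannot be told apart from treatment. All 6 arrays with Inhbb above the floor were among the 7 deposited on other scales, and none was among the 10 on the common scale. Of the choroid plexus and meninges markers, 1 of 6 rose in single brains against drug control pools, and their summed intensity was 4523 to 25497 in single treated brains and 8971 to 14606 in drug control pools. Their part in the member levels was not tested.

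Against drug control pools, 645 of 9907 probe sets, or 6.51%, passed, and no member with measured values in both groups did. Bdnf had a log2 difference of 0.79 (SE 0.22, limma adjusted p = 0.0693) and, with Inhbb, did not overlap (8.90% of all higher). Hbegf had 0.88 (SE 0.37, limma adjusted p = 0.168), Inhba 0.33 (SE 0.14, 0.162), Hgf -0.65 (SE 0.20, 0.0873) and Ntrk2 0.25 (SE 0.52, 0.790). Without drug control pool 1 the log2 difference was 0.61 for Bdnf, 0.39 for Hbegf and 0.37 for Inhba. Without drug control pool 2, the brightest of its group for Bdnf and the dimmest for Hgf, both Bdnf (1.00, limma adjusted p = 0.0338) and Hgf (-0.87, 0.0243) passed. In that setting 983 of 9750 probe sets were called, so these passes are not read as a result about the members. Against ischemic pools, 182 of 9889 probe sets, or 1.84%, passed. Bdnf had -0.25 (SE 0.21), Hbegf -0.20 (SE 0.38) and Inhba -0.30 (SE 0.15) there, with limma adjusted p values of 0.499, 0.791 and 0.275. Ntrk2, on floored values, had 1.14 (SE 0.41, limma adjusted p = 0.158). It was above the floor on 5 of 5 single brains and 1 of 3 ischemic pools. Ntrk2 thus passed the filter on low values through the single brains, so its difference and p are a description. Inhbb did not overlap with the ischemic pools, higher (7.21% of all), nor did Hgf, lower (-0.73, SE 0.20, limma adjusted p = 0.0946; 9.80% of all).

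Related genes were read from 9 lists with 182 genes, of which 142 had a probe set and 119 were tested in the pools. The list of activity-induced transcription and synaptic genes moved most in ischemia averaged over both arms: 8 of 17 tested genes rose, none fell, and the median log2 difference was 1.02, against 0.014 over all probe sets. Over all probe sets 46 of 10259, or 0.448%, were called. The lists were chosen with earlier results of these data known, so this is a description and no test of the list. Fos, a subunit of AP-1, rose 8.94-fold (limma adjusted p = 0.000694), with 25012 to 39858 in treated ischemic pools, against 2860 to 6296 in drug control pools, and 36411 to 43876 in ischemic pools, against 2481 to 6743 in control pools. Egr1, an immediate early zinc finger factor, rose 3.69-fold (limma adjusted p = 0.000283). The other risers were the stress gene Gadd45b (7.30-fold), the AP-1 subunits Fosb (3.67-fold) and Junb (3.01-fold), the orphan nuclear receptor Nr4a1 (3.61-fold), the factor Klf4 (2.40-fold) and the phosphatase Dusp1 (1.97-fold). Without the drug 5 of these passed (0.214% of all probe sets) and with the drug 3 did (0.0877% of all). Without the 2 arrays of unlike labels, 22 probe sets were called in the averaged comparison, among them 5 of the 8 (Fos, Fosb, Egr1, Nr4a1 and Gadd45b), and with the drug 0 of the 17 genes passed by limma.

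In the 8 lists of growth factors, receptors and secreted peptides no gene passed in ischemia averaged over both arms. The EGF family with its receptors and shedding enzymes had 11 of 13 tested genes above 0 and a median of 0.21, or 0.19 without Hbegf. Its smallest p values belonged to the tetraspanin Cd9, a known partner of the Hbegf precursor (0.43, SE 0.17, limma adjusted p = 0.816), and the EGF receptor inhibitor Errfi1 (0.33, SE 0.13, 0.849). Of the neurotrophin list 4 genes of 12 could be tested, with a median of -0.10; Ntrk3, the Ntf3 receptor, had -0.16 and the p75 partner Maged1 -0.04. In the activin list 6 of 11 genes were above 0 (median 0.07), and the activin-binding protein Fst had 0.71 (SE 0.48) and the receptor Acvr2a -0.45 (SE 0.18). The TGF-beta list had a median of 0.005 over 17 genes, with the SMAD corepressor Tgif1 at 1.22 (SE 0.31, limma adjusted p = 0.265). The fibroblast growth factor list had a median of 0.10 over 15 genes and the list of HGF activation and receptors 0.07 over 6, with the protease inhibitor Spint1 at -0.89 (SE 0.28, limma adjusted p = 0.536). Other growth factors had a median of 0.07 over 23 genes. Secreted peptides and granins had 0.15 over 14, with the opioid precursor Penk at -0.54 (SE 0.18, limma adjusted p = 0.606) and the synaptic pentraxin Nptx2 at 0.84 (SE 0.38, 0.998).

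**Figure D4:**
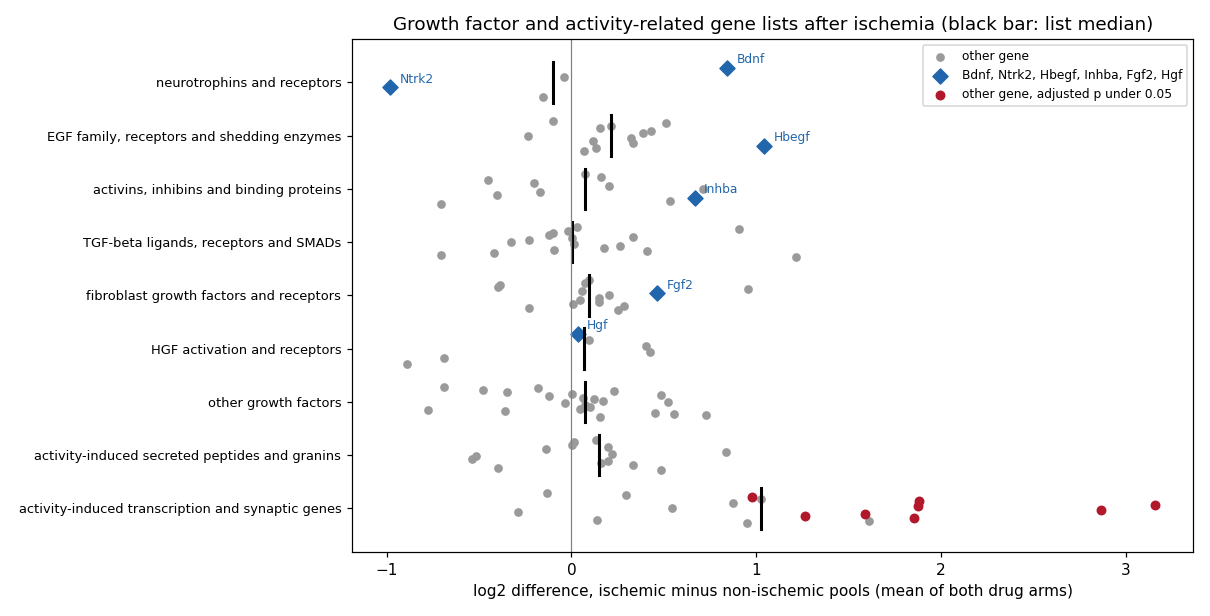
Log2 difference of ischemic minus non-ischemic pools, averaged over both drug arms (horizontal axis), for the 119 tested genes of 9 lists (rows). Blue diamonds are the 6 tested members, red points other genes with an adjusted p under 0.05 and black bars list medians; the 8 red points are all in the list of activity-induced transcription and synaptic genes, whose median is 1.02.

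For Inhba and Bdnf, the members with the smallest p in that averaged comparison, the most alike probe sets over the 12 pooled arrays were sought among 9082. Inhba was most like the cytokine Il1a (Pearson r = 0.949), the AP-1 subunit Jund (0.928) and the small GTPase Rrad (0.912). Bdnf was most like the G protein regulator Rgs2 (0.961), Klf4 (0.960) and Ankrd33b (0.960). These are descriptions over arrays that share both the ischemia contrast and their preparation. Il1a rose with ischemia averaged over both arms (log2 difference 1.86, limma adjusted p = 0.0356), as did Rrad (1.22, 0.00665) and Klf4 (1.26, 0.0331). Jund, Rgs2 and Ankrd33b had 0.31, 0.95 and 0.78 and did not pass.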

How the data were processed

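Gene expression was measured in 17 mouse brain arrays. The deposited values are linear intensities, 1 per probe set and array, made by the authors; their software is not given in the sources used here. On each array 15.2% to 19.3% of the values lay below 0, and 24.3% to 26.5% at or below the floor. Each array was multiplied to a 2-98% trimmed mean of 2500; arrays off that scale had trimmed means of 129 to 210. Values under 109.5 were set to that floor before log2. The platform annotation gave 1 symbol to 10855 probe sets, several to 396 and none to 1237. The 66 array controls were left out. Groups came from the titles, and single brains from the descriptions.

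limma 3.58.1 in R 4.3.3 fitted all 12 pooled arrays together (8 residual and 2.23 prior degrees of freedom) and the single brains in separate fits with 3 pools each. A probe set was tested, two-sided, if 3 or more arrays of its fit exceeded the floor, with Benjamini-Hochberg adjustment over all of them and a threshold of 0.05. The p values concern the spread between these pools, which may be technical; an exact permutation test of 3 arrays against 3 cannot go below 0.1 and was not used. The scripts were tested on simulated data.

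Pairing was checked by the correlation of same-numbered arrays' deviations from their group means. It was over 0.1 for every number among control, drug control and ischemic pools (0.33 to 0.57), and between -0.34 and 0.40 with treated ischemic pools, whose numbers were not read as pairs. What a number marks is not in the labels. The blocked fit used all 12 arrays.

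Members and gene lists were chosen with earlier results of these data known. Besides all members, the text names, of each list, the genes past the threshold in any comparison and up to 3 more with the smallest p in ischemia averaged over both arms, and the 3 probe sets most like each of 2 members; a few of these are given as counts. The brightest probe set stands for a gene. Alternatives were the normalization, the floor, the filter, a mean-variance trend, the replicate block, the deposited scale, the group labels and each array left out.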

Additional observations from a re-analysis of the deposited data

Results flagged for a closer look

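Tgfb1 in the single treated brains was picked out because 1 of 5 brains was above the floor. Brain 11 had a scaled intensity of 281, above the floor, while the other 4 were set to the floor, so the gap to the nearest value divided by the whole range (Dixon's ratio) was 1 by construction, over Dixon's 95% critical value. On values not set to the floor the ratio was 0.487, under the critical value. A chance rate of about 1 in 20 groups holds only for values not set to the floor. With floored values, a group with 1 of 5 brains above the floor is always picked out. In all, 8 members were looked at.

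The Hgf response to ischemia was picked out because it ran opposite ways with and without the drug. All 3 treated ischemic pools were below the mean of the drug control pools, and all 3 ischemic pools were above the mean of the control pools. The difference between the responses was -1.58 on the log2 scale, with a limma p of 0.00117 and an adjusted p of 0.999738 over 10259 probe sets. It kept its sign in 21 of 21 alternatives, with adjusted p values between 0.163 and 1. These alternatives reuse the values by which Hgf was picked out, so the kept sign is no separate support. Hgf lay close to the floor, at 10 to 271 over the 12 pools. It passed the filter on low values mainly through the drug control and ischemic pools, with 3 of 3 above the floor in each. Above the floor were 1 of 3 control and 0 of 3 treated ischemic pools, so its p is a description.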

How the results depend on the processing

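The number of members called changed as follows. With the replicate number as a block, ischemia without the drug had 1 (Hbegf) in place of 0, with 35 probe sets, or 0.341%, called. Averaged ischemia then had 2 (Hbegf, adjusted p = 0.00498 by limma, and Bdnf, 0.00759) in place of 0, with 65 of 10259, or 0.634%, called. The blocked fit includes the treated pools, whose numbers were not read as pairs. The block changed no other call of a member. With values as deposited, the drug after ischemia had 3 and the single brains 4 against drug control and 4 against ischemic pools. Over all probe sets 7132 of 10701, 8966 of 9110 and 8966 of 9097 were then called. The median log2 difference of all probe sets was then -2.48 (with the drug), -1.20 (averaged), -2.51 (drug after ischemia), -3.76 and -3.77 (single brains). Against drug control pools the mean-variance trend gave 2, with 889 of 9907 probe sets called, and single arrays left out gave 1 to 3. The 1 member called in each single-brain comparison was Inhbb, which entered the test through the single brains alone. A floor at the 40th percentile left Inhbb untested, with 0 called against ischemic pools. The 1 called against drug control pools was then another member, Bdnf (0.79, limma adjusted p = 0.0435), where 935 of 7819 probe sets were called. No other alternative changed the number called by over 1.5 times.

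Signs turned in 65 values, none of them called in the main setting. As deposited, with the drug, Inhba was -2.03, Bdnf -1.76 and Hbegf -1.68; averaged, Inhba -0.65, Bdnf -0.47, Hgf -0.16 and Hbegf -0.27; between responses, Bdnf -2.57 and Ntrk2 -0.63; single against drug control, Inhba -3.54, Bdnf -3.09 and Hbegf -3.00. Under quantile normalization averaged Hgf was -0.020; Inhba was 0.011 for the drug after ischemia, -0.013 for the drug without ischemia and 0.024 between responses; Hbegf was -0.0096 for the drug without ischemia. With the deposited scale as a covariate, Inhba was 0.068 and Fgf2 0.18 for the drug after ischemia, and Bdnf -0.16, Fgf2 0.18 and Ntrk2 -0.29 between responses. With groups from the descriptions, averaged Hgf was -0.15; the drug after ischemia gave Bdnf 0.037, Hbegf 0.40 and Ntrk2 0.25; the drug without ischemia gave Bdnf 0.10; between responses Bdnf was -0.067; Hbegf was 0.0013 in single against ischemic. Without the 2 arrays, Hbegf was 0.20 and Ntrk2 0.14 for the drug after ischemia and Bdnf -0.014 between responses.

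Leaving out single arrays gave, averaged, Hgf -0.080 to 0.13; for the drug after ischemia, Ntrk2 -0.42 to 0.37, Bdnf -0.37 to 0.0017, Hbegf -0.61 to 0.29 and Inhba -0.13 to 0.072; for the drug without ischemia, Inhba -0.091 to 0.29, Hbegf -0.36 to 0.56, Ntrk2 -0.86 to 0.81 and Bdnf -0.44 to 0.0020; between responses, Inhba -0.32 to 0.065, Hbegf -0.69 to 0.23, Ntrk2 -0.86 to 0.81 and Bdnf -0.17 to 0.27; and in single brains, Ntrk2 -0.41 to 0.58 against drug control and Hbegf -0.68 to 0.22 against ischemic pools.

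Counts over all probe sets were unstable: without the drug 22 became 1 to 19 when an array was left out (1 without ischemic pool 1 or 3) and 35 with the block. With an array left out, 9 with the drug became 1 to 6 and averaged 46 became 30 to 44. The single brains' 645 became 234 to 983 and 182 became 48 to 449. These ranges cover left-out arrays alone. The averaged count was below its range without the 2 arrays of unlike labels (22) and with values as deposited (0). It was also below it with the deposited scale as a covariate, where treated ischemic pool 1 alone stood for its group. A floor at the 10th percentile, below 0, was not run; the 20th was added after seeing the data. Block and scale could not be fitted for the single brains. Few arrays and values near the floor limit Hgf, Fgf2, Ntrk2, Inhbb and Tgfb1 most.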

Other observations

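In the single treated brains, further genes of the growth factor lists passed limma's test against drug control pools, outside the members. Over all probe sets 645 of 9907, or 6.51%, passed, and 940 of 9753 without drug control pool 1. By list, 1 of 12 EGF family, 1 of 12 activin, 1 of 16 TGF-beta, 2 of 12 fibroblast growth factor and 1 of 23 other genes fell. Of the 23 others 1 rose, as did 2 of 14 secreted peptides, so nothing particular to these lists is read. Lower were the shedding protease Adam10 (log2 difference -0.61, adjusted p = 0.0242), the activin receptor Acvr2a (-0.69, 0.0377), the latent TGF-beta binding protein Ltbp3 (-0.93, 0.0471), Fgf4 (-0.74, 0.0402) and the FGF signal inhibitor Spry4 (-1.07, 0.0441). The GDNF family ligand Artn, which passed the filter on low values only through the drug control pools, was at the floor in all 5 single brains, against 284 to 438 in drug control pools. Higher were the heparin-binding factor Mdk (1.00, 0.0412), the granin Chga (2.83-fold, 0.0294) and the neuropeptide precursor Sst (0.71, 0.0252). Chga was 5473 to 6460 in single treated brains, against 1543 to 3901 in drug control pools.

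Against ischemic pools, Chga was again higher (log2 difference 1.10, limma adjusted p = 0.0241), with 2390 to 3554 in the ischemic pools. In that comparison 182 of 9889 probe sets, or 1.84%, passed. Fgf17 was above the floor in 1 of 5 single brains, against 180 to 422 in ischemic pools. Single brains differ from drug control and ischemic pools in deposited scale and brains per array, which these comparisons cannot tell apart from treatment. Treated ischemic pools had the single brains' procedure. Mean log2 values in single brains, treated ischemic and drug control pools were 10.78, 11.21 and 11.39 for Adam10. They were 10.72, 10.93 and 11.41 for Acvr2a, 10.11, 10.67 and 11.04 for Ltbp3, and 10.50, 11.09 and 11.24 for Fgf4. Spry4 had 10.49, 11.36 and 11.56, and Mdk 10.76, 9.88 and 9.76. Chga had 12.55, 11.48 and 11.05, and Sst 15.12, 14.92 and 14.41. Treatment's part was not tested.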
